A study of Mus musculus with 18 samples.

Results

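Class I myosins are single-headed, actin-based motors whose tails bind lipids of the plasma membrane, so that a single protein can tie the membrane to the actin cortex beneath it. The genes described here are Myo1a, Myo1c, Myo1d, Myo1e, Myo1f, Myo1g and Myo1h, chosen by name as class I myosins and matched to the table by their Ensembl identifiers. All 7 were present among the 53801 genes counted, and all 7 passed the filter on low counts.

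The data were polyA RNA-seq of mouse embryonic stem cells (ESCs) of the E14 line, in 18 libraries that form 6 groups of 3. The parental E14 cells (WT) and the iEZR_CA line derived from E14 cells were each collected in the naive state in 2i+LIF (ESC), after 24 h in N2B27 (T24) and after 48 h in N2B27 (T48). N2B27 is a medium without the 2i inhibitors and LIF, in which cells leave naive pluripotency. The iEZR_CA cells carry a PiggyBac transgene from which doxycycline induces a phosphomimetic, constitutively active ezrin with an IRES mCherry reporter, and the drug was given for about 16 h before exit. No doxycycline is stated for the WT cells and the iEZR_CA cells are a single line, so the transgene, the drug and the line cannot be told apart in any comparison between the lines. The labels do not say whether the 3 samples of a group were separate cultures, although the study's methods describe biological replicates, so the p-values measure the spread between these samples.

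Each library held between 10940752 and 33276622 reads assigned to genes. Every library correlated more strongly with its own group (lowest r = 0.99185) than with any other (highest r = 0.9682). The counts for Ezr, in which reads of the transgene and of the endogenous gene were not told apart, were 24819 normalized counts ± 499 (SD, n = 3) in iEZR_CA ESCs and 11763 ± 277 in WT ESCs. The share of reads set aside for low alignment quality was 0.889% to 1.02% in the iEZR_CA libraries and 0.519% to 0.612% in the WT libraries, and its part in the differences between the lines was not tested. Normalized counts are counts divided by a library's size factor, so that they compare 1 gene between libraries but not different genes.

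The pluripotency markers Pou5f1, Sox2, Nanog, Esrrb, Zfp42 and Klf4 were present in every library, and their summed level fell from 98320 to 99610 normalized counts in WT ESCs to 16850 to 17890 in WT T48 cells. In iEZR_CA cells the same sum went from 85140 to 87050 in ESCs to 23530 to 24900 at T48. At T48 Pou5f1 averaged 13130 in WT and 10870 in iEZR_CA cells, while each other marker of this list averaged higher in iEZR_CA cells. The summed level of the formative markers Otx2, Fgf5, Pou3f1, Lef1 and Dnmt3b was 42090 to 44440 in WT and 15050 to 16020 in iEZR_CA cells at T24. At T48 it was 75510 to 81330 and 38190 to 40380. Dnmt3b made up most of this sum, averaging 59630 in WT and 26680 in iEZR_CA cells at T48. At T24 each formative marker averaged lower in iEZR_CA cells. At T48 Pou3f1 and Lef1 were also lower, but Otx2 averaged 2083 in WT and 3492 in iEZR_CA cells, and Fgf5 1225 and 1336. The part of the gap between these sums in the differences between the lines was not tested. In bulk RNA, fewer cells with a transcript and less of it per cell cannot be told apart.

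Every class I myosin has a motor head, a neck that binds calmodulin or related light chains, and a tail with a membrane-binding TH1 domain. Myo1e and Myo1f are the long-tailed members, whose tails add a proline-rich region and an SH3 domain that contacts the endocytic and Arp2/3 machinery. The others are short-tailed. Myo1a is known from the microvilli of the intestinal brush border, Myo1f and Myo1g from blood cells, and Myo1c, Myo1d and Myo1e from many tissues. In ESCs, ezrin, radixin and moesin (the ERM proteins) link the same membrane and cortex without a motor.

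The members lie on 5 chromosomes of GRCm38. Myo1a (ENSMUSG00000025401) is at chr10:127705170-127720940 on the plus strand. Myo1c (ENSMUSG00000017774) at chr11:75650504-75673910 on the plus strand, Myo1d (ENSMUSG00000035441) at chr11:80482126-80780025 on the minus strand and Myo1g (ENSMUSG00000020437) at chr11:6506548-6520965 on the minus strand share chromosome 11. Myo1e (ENSMUSG00000032220) is at chr9:70207350-70399766, Myo1f (ENSMUSG00000024300) at chr17:33555707-33607764 and Myo1h (ENSMUSG00000066952) at chr5:114289166-114365357, all on the plus strand. The gene spans run from 14.4 kb for Myo1g to 298 kb for Myo1d, and the merged exons from 3714 bp for Myo1a to 6957 bp for Myo1g. Exons of Myo1h overlap 1530 bp of exons of Kctd10 on the opposite strand. Whether reads were counted by strand is not given in the sources used here, so the values of Myo1h are uncertain.

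RefSeq promoter windows of GRCm38.p6 were matched for 6 of the 7 members, all but Myo1d. The windows of Myo1a, Myo1e and Myo1f are shown because these genes gave the largest or most stage-dependent differences, and each ends at the base before the gene's annotated start. All 3 read on the plus strand. Capitals mark matches to the motifs searched on both strands, which were the CArG box bound by SRF, CTTTGA (TCF/LEF), AAGGTCA (ESRRB), TTCNNNGAA (STAT), ATGCAAAT (octamer), CCAAT and TATAAA.
Myo1a, chr10:127705006-127705169: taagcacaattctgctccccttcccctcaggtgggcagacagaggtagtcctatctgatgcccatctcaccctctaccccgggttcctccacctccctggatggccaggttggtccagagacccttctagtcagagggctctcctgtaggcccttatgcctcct
Myo1e, chr9:70207100-70207349: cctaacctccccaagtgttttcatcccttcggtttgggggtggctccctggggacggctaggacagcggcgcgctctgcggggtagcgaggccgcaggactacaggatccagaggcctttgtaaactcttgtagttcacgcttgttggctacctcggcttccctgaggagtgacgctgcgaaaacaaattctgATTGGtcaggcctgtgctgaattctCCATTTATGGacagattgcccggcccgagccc
Myo1f, chr17:33555457-33555706: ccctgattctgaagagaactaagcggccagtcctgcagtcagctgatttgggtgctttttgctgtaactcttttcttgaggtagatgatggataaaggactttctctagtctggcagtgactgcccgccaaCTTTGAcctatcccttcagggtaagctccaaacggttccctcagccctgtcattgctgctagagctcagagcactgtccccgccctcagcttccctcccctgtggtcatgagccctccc

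The Myo1e window held a CArG box 32 to 23 bases before the start, a motif found in 1.47% of 32851 windows of 250 bases, and CCAAT on the reverse strand (33.8% of windows). The Myo1f window held a single CTTTGA, 119 to 114 bases before the start (13.8% of windows). Among windows not shown, CTTTGA was also found in 1 of the 3 windows of Myo1c (135 to 130 bases before that window's RefSeq start). It was found in 1 of the 2 windows of Myo1h as well, 215 to 210 bases before that window's RefSeq start. This Myo1h window, chr5:114356565-114356814, lies inside the gene as annotated by GENCODE. CCAAT was found in the other Myo1h window. The Myo1a window held none of the motifs, either in the letters shown or in the full 250 bases before the start in RefSeq, which lies inside the gene as annotated by GENCODE. AAGGTCA was found in 4.08% of all windows, TTCNNNGAA in 7.02%, ATGCAAAT in 1.6% and TATAAA in 12.4%, and none of these was found in a window of the 6 members. A match is a description of the letters and not evidence of binding.

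The first comparison asked which members differed between iEZR_CA and WT cells in naive ESCs. In ESCs, 5 of the 7 members passed the test, where 54.5% of all 18469 genes tested passed (edgeR quasi-likelihood test, Benjamini-Hochberg adjusted p under 0.05). Myo1a, Myo1e and Myo1f were lower and Myo1c and Myo1d higher in iEZR_CA cells, and Myo1g and Myo1h did not pass. At T24, 5 of the 7 passed beside 60.9% of all genes, with Myo1a, Myo1c and Myo1f lower and Myo1d and Myo1e higher. At T48, 5 of the 7 passed beside 61.1% of all genes, with Myo1a and Myo1c lower and Myo1d, Myo1f and Myo1g higher. The count of members passing was thus about 1 gene above the share of all genes at each stage. The median log2 difference over the members was -0.40 in ESCs, -0.14 at T24 and 0.05 at T48, beside medians over all genes between -0.01 and 0. The 3 comparisons use different libraries, but each shares its groups with the comparisons over time below.

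**Figure D1:**
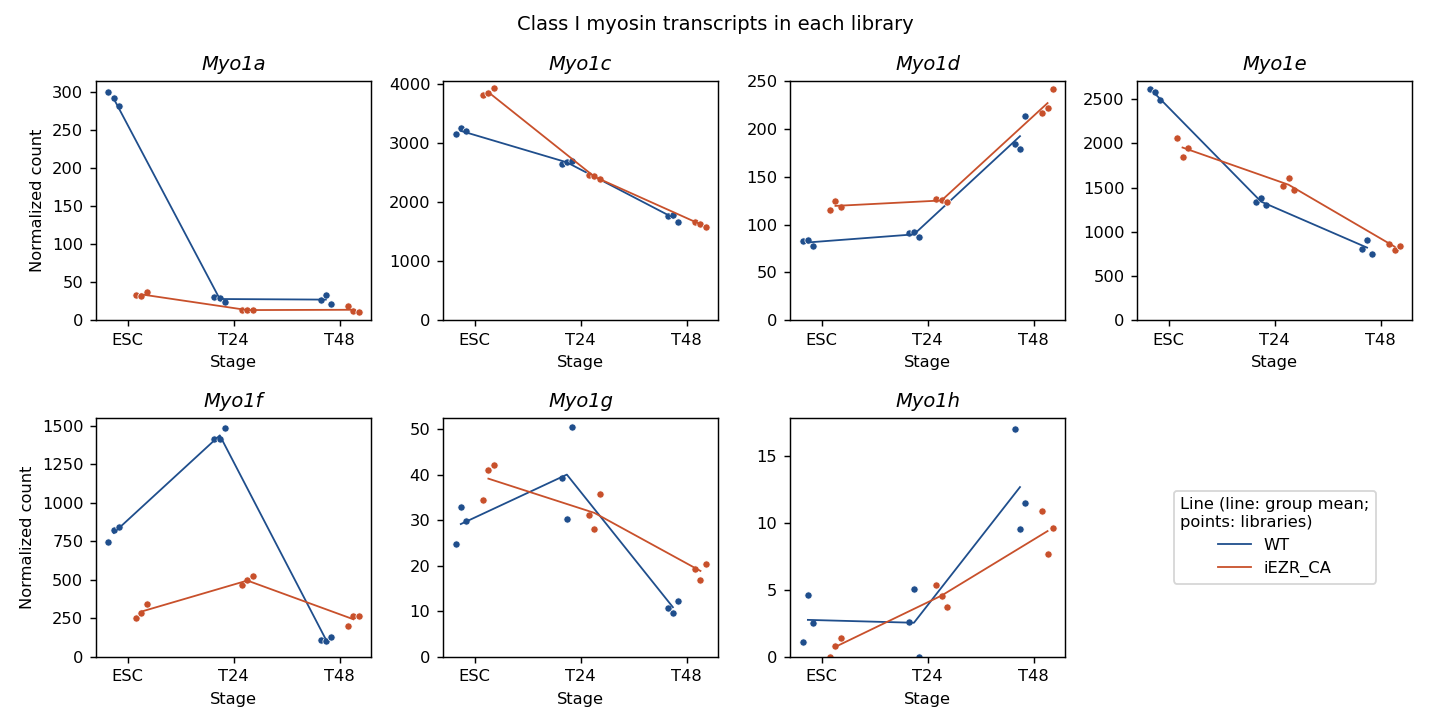
Normalized counts (vertical axes, each from 0) of the 7 class I myosins at the ESC, T24 and T48 stages (horizontal axes) in WT (blue) and iEZR_CA (orange) cells, with points for single libraries and lines joining the means of 3. Myo1a stood at 282 to 300.1 in WT ESCs and at 36.4 or below in every other library, and Myo1f peaked at T24 in both lines.

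Myo1a, the brush border myosin, showed the largest difference between the lines in ESCs. In the 3 WT ESC libraries it had 300.1, 292 and 282 normalized counts. In the 3 iEZR_CA ESC libraries it had 33.2, 31.8 and 36.4. All the WT ESC values stood above all the iEZR_CA ones, and the group means differed by 8.62-fold. The log2 difference was -3.12 ± 0.14 (SE, edgeR adjusted p = 1.1e-30), larger in size than that of 98.8% of all genes tested.

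At T24 the WT libraries had 30.3, 29.3 and 23.6 normalized counts of Myo1a and the iEZR_CA libraries 13.5, 12.9 and 13.1. At T48 they had 27.0, 32.5 and 21.3 in WT cells and 18.4, 11.5 and 10.8 in iEZR_CA cells. The lines did not overlap at either stage, but both were low. At T24 the values rested on 15 to 47 reads in WT and 10 to 17 in iEZR_CA libraries. At T48 they rested on 17 to 35 and 9 to 22 reads. The log2 difference was -1.11 ± 0.26 at T24 (edgeR adjusted p = 0.000147) and -0.89 ± 0.26 at T48 (edgeR adjusted p = 0.00236). In the order of group means, WT ESCs came first by a wide margin, followed by iEZR_CA ESCs. The WT T24 and WT T48 groups overlapped each other, as did iEZR_CA T48 and T24 at the bottom, and the highest group mean was 22.1 times the lowest.

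The other brush border genes listed, Vil1, Cdh17 and Lgals4, were low and moved in different directions. Lgals4, a galectin gene, averaged 46.3 normalized counts in WT ESCs and 32.4 in iEZR_CA ESCs and was at 31.5 or below in the other groups. Vil1, which codes for villin, averaged 21.1 and 41.5 in WT and iEZR_CA ESCs, and Cdh17, an intestinal cadherin, 1.36 and 3.07. The sum of the 3 was 58.9 to 77.6 in WT ESCs and 69.5 to 83.1 in iEZR_CA ESCs. All 3 passed the filter on low counts, and Cdh17 was at 0 in 2 libraries.

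The summed level of the primitive endoderm markers was low and was highest in WT ESCs. The sum over Gata4, Gata6, Sox17, Pdgfra and Sox7, all of which passed the filter, was 189.9 to 200.1 normalized counts in WT ESCs, 115 to 137 in iEZR_CA ESCs and 49.2 to 126.9 in the other groups. Gata4, a transcription factor of that lineage, averaged 97.5 in WT ESCs and 12.4 to 22.2 in each other group. Gata6 averaged 32.4 in WT and 61.5 in iEZR_CA ESCs, and Sox7 was at 0 in 3 libraries. The trophoblast markers Cdx2, Elf5 and Eomes, of which Elf5 did not pass the filter, summed to 174 to 181 in WT ESCs and 129.6 to 137 in iEZR_CA ESCs, and reached 227 to 263.8 in iEZR_CA T48 cells. Most of this sum was Eomes, which averaged 107.8 in iEZR_CA ESCs and 237.3 in iEZR_CA T48 cells. Cdx2 went the other way, from 19.3 to 8.11, as did Elf5, from 7.16 to 0.40. The part of these markers in the difference of Myo1a was not tested.

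Myo1f, a long-tailed member known from neutrophils and macrophages, changed the sign of its difference between T24 and T48. WT ESCs had 749, 823 and 842 normalized counts and iEZR_CA ESCs 254, 284 and 343. At T24 the WT libraries had 1416, 1414 and 1483 and the iEZR_CA libraries 467, 496 and 522. At T48 the order was turned, with 111, 101 and 126 in WT cells and 202, 263 and 266 in iEZR_CA cells.

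The lines did not overlap for Myo1f at any stage. In ESCs its mean was 2.74-fold lower in iEZR_CA cells (log2 difference -1.48 ± 0.08, edgeR adjusted p = 1.2e-18). At T24 it was 2.9-fold lower (log2 difference -1.53 ± 0.07, edgeR adjusted p = 1.52e-21), and at T48 it was 2.16-fold higher (log2 difference 1.07 ± 0.12, edgeR adjusted p = 2.56e-10). WT T24 was the highest of the 6 groups and WT T48 the lowest, 12.7-fold apart. Among neighbours in that order only iEZR_CA ESC and iEZR_CA T48 overlapped.

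**Figure D2:**
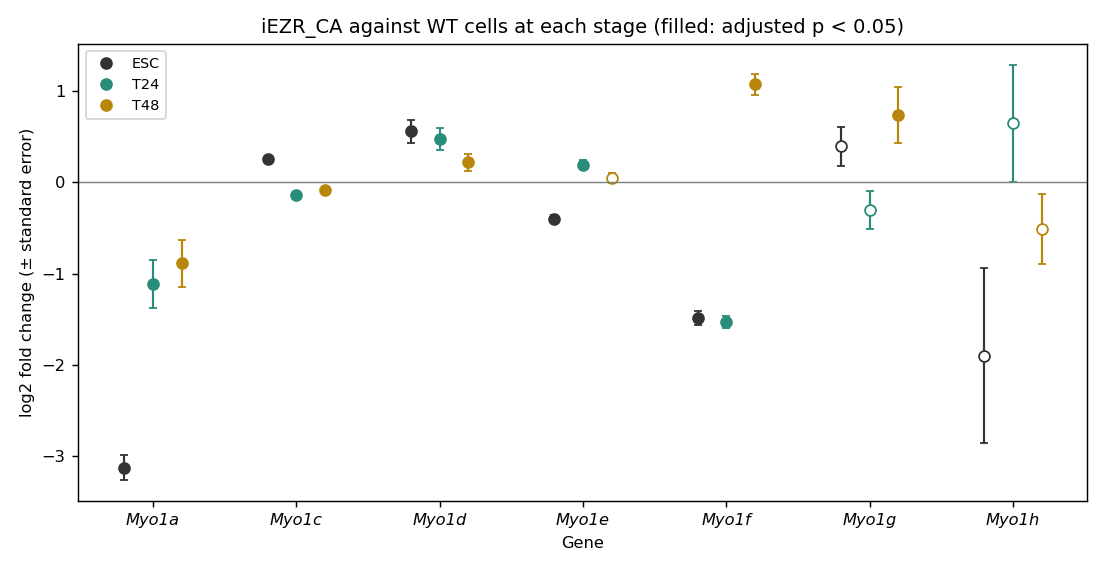
Difference between iEZR_CA and WT cells as a log2 fold change (vertical axis, ± standard error from the edgeR fit) for each member (horizontal axis) in ESCs (black), at T24 (green) and at T48 (ochre), with filled points for adjusted p under 0.05. Myo1a was below 0 at all 3 stages, and Myo1f went from -1.53 at T24 to 1.07 at T48.

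Markers of blood cells were examined because Myo1f and Myo1g are known from that lineage. The defining leukocyte genes Ptprc (CD45) and Cd53 had at most 4 and 2 counts in any library and were at 0 in 10 and 13 libraries. Of the 5 listed genes, Laptm5, Spi1 and Coro1a passed the filter on low counts. The summed level of the list ran from 242.8 to 250.4 normalized counts in WT T48 cells to 3453 to 3872 in WT ESCs. Laptm5, a lysosomal membrane protein gene, averaged 3604 in WT and 3575 in iEZR_CA ESCs, 1497 and 3307 at T24, and 122 and 1045 at T48. Spi1, which codes for the transcription factor PU.1, averaged 41.2 in WT and 141.8 in iEZR_CA ESCs and at most 24.6 in any other group. Coro1a, a coronin gene, averaged 33.9, 56.6 and 99.4 in WT ESC, T24 and T48 cells and 17.1, 52.7 and 47.2 in iEZR_CA cells. The part of these markers in the differences of Myo1f and Myo1g was not tested.

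Myo1g, the short-tailed myosin of lymphocytes, was low. It had 24.7, 32.9 and 29.8 normalized counts in WT ESCs and 34.3, 41.0 and 42.0 in iEZR_CA ESCs, and the log2 difference of 0.39 ± 0.21 did not pass (edgeR adjusted p = 0.115). At T24 the values overlapped, with 39.3, 30.3 and 50.4 in WT and 31.0, 28.1 and 35.6 in iEZR_CA cells (log2 difference -0.30 ± 0.21, edgeR adjusted p = 0.212). At T48 it was higher in all 3 iEZR_CA libraries, at 19.2, 16.9 and 20.4, than in WT cells at 10.8, 9.56 and 12.3 (log2 difference 0.74 ± 0.31, edgeR adjusted p = 0.0335). Only 5 to 15 reads lay behind each WT T48 value. The T48 call was lost when any of 5 of the 6 T48 libraries was left out (WT replicates 1, 2 and 3 and iEZR_CA replicates 1 and 3), with adjusted p between 0.0501 and 0.1. It was also lost with DESeq2 (adjusted p = 0.0998), with no filter on low counts (adjusted p = 0.0645) and under spike-in scaling (log2 difference 0.74 ± 0.35, adjusted p = 0.0819).

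Myo1e, the other long-tailed member, which takes part in clathrin-mediated endocytosis and podocyte foot processes, was lower in iEZR_CA ESCs and higher in iEZR_CA cells at T24. WT ESCs had 2612, 2582 and 2492 normalized counts and iEZR_CA ESCs 2065, 1851 and 1942, a 1.31-fold lower mean without overlap (log2 difference -0.40 ± 0.04, edgeR adjusted p = 3.29e-13). At T24 WT cells had 1335, 1382 and 1305 and iEZR_CA cells 1513, 1611 and 1471, a 1.14-fold higher mean (log2 difference 0.19 ± 0.04, edgeR adjusted p = 0.000126). At T48 the libraries overlapped, at 804, 904 and 752 in WT and 858, 797 and 837 in iEZR_CA cells (log2 difference 0.05 ± 0.05, edgeR adjusted p = 0.443). The T24 call was lost when libraries were scaled by the spike-in RNA, where the log2 difference was 0.27 and its standard error rose to 0.13 (adjusted p = 0.0872).

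Myo1c, a short-tailed member that works in exocytosis and membrane trafficking, had the highest normalized level per kb of the members in every group. WT ESCs had 3154, 3246 and 3199.8 normalized counts and iEZR_CA ESCs 3804, 3834 and 3926, so that the iEZR_CA mean was 1.2-fold higher (log2 difference 0.26 ± 0.03, edgeR adjusted p = 4.17e-11). At T24 it was lower in all 3 iEZR_CA libraries, at 2449.6, 2445 and 2379.5 against 2639, 2668 and 2697 (log2 difference -0.14 ± 0.03, edgeR adjusted p = 0.000225), a call lost under spike-in scaling (log2 difference -0.06 ± 0.13, adjusted p = 0.739). At T48 the lines overlapped, with 1759, 1782 and 1662 in WT and 1664, 1617 and 1579 in iEZR_CA cells (log2 difference -0.09 ± 0.04, edgeR adjusted p = 0.0298). This last call was lost under 3 other settings and without WT T48 replicate 1, WT T48 replicate 2 or iEZR_CA T48 replicate 3, with adjusted p up to 0.841.

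Myo1d, a short-tailed member known for left-right asymmetry and endosomal traffic, was higher in iEZR_CA cells at all 3 stages without overlap. It had 83.2, 83.4 and 77.5 normalized counts in WT ESCs and 115, 125 and 119 in iEZR_CA ESCs (log2 difference 0.56 ± 0.12, edgeR adjusted p = 7.32e-05). At T24 it had 90.8, 91.9 and 86.7 in WT and 127, 125 and 124 in iEZR_CA cells (log2 difference 0.47 ± 0.12, edgeR adjusted p = 0.000372). At T48 it had 185, 179.7 and 214 in WT and 217, 222 and 242 in iEZR_CA cells (log2 difference 0.22 ± 0.09, edgeR adjusted p = 0.0322). The T48 call was lost with DESeq2 (adjusted p = 0.148), under spike-in scaling (log2 difference 0.27 ± 0.16, adjusted p = 0.178), and without WT T48 replicate 1, WT T48 replicate 2, iEZR_CA T48 replicate 2 or iEZR_CA T48 replicate 3 (adjusted p between 0.0564 and 0.196).

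Myo1h, the closest relative of Myo1c, was close to the floor of detection, with 0 to 22 reads in a library. WT ESCs held 10 reads over 3 libraries and iEZR_CA ESCs 2, a ratio of 0.24 (95% exact interval 0.0255 to 1.13, counting error only, edgeR adjusted p = 0.0905). At T24 the sums were 9 reads in WT and 14 in iEZR_CA cells (ratio 1.58, 95% exact interval 0.638 to 4.14, edgeR adjusted p = 0.398). At T48 they were 41 and 31 (ratio 0.69, 95% exact interval 0.418 to 1.13, edgeR adjusted p = 0.251). A difference between the lines was not detectable at this depth.

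The second set of comparisons followed the members through exit from naive pluripotency in each line. From ESC to T48 all 7 members passed in WT cells, beside 74.5% of all genes, and all 7 in iEZR_CA cells, beside 70.1% of all genes. In both lines Myo1a, Myo1c, Myo1e, Myo1f and Myo1g fell and Myo1d and Myo1h rose. Of all genes tested, 37.4% fell and 37.1% rose in WT cells, and 35.0% fell and 35.2% rose in iEZR_CA cells. The median log2 change of the members was -1.41 in WT and -1.07 in iEZR_CA cells, beside 0.01 over all genes in both.

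In WT cells, 4 of the 7 members passed from ESC to T24, beside 65.4% of all genes, and 6 of the 7 from T24 to T48, beside 65.7%. In iEZR_CA cells, 5 of the 7 passed from ESC to T24, beside 56.0%, and 5 of the 7 from T24 to T48, beside 59.6%. The earlier and the later interval share the T24 libraries. Under scaling by the spike-in RNA the median log2 change of all genes was 0.10 to 0.14 in single intervals, and 0.27 in WT and 0.26 in iEZR_CA cells from ESC to T48, so the directions given here are relative to the bulk of genes.

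Myo1a fell in the first interval and not in the second. From ESC to T24 its mean fell 10.5-fold in WT cells (log2 change -3.35 ± 0.14, edgeR adjusted p = 6.02e-33) and 2.57-fold in iEZR_CA cells (log2 change -1.35 ± 0.26, edgeR adjusted p = 6.09e-06). From T24 to T48 the libraries overlapped in both lines, and the log2 changes of -0.15 ± 0.22 and 0.07 ± 0.30 did not pass (edgeR adjusted p = 0.562 and 0.853).

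Myo1f rose and then fell in both lines. From ESC to T24 it rose 1.79-fold in WT cells (log2 change 0.82 ± 0.06, edgeR adjusted p = 1.29e-14) and 1.69-fold in iEZR_CA cells (log2 change 0.77 ± 0.09, edgeR adjusted p = 5.87e-10). From T24 to T48 its mean fell 12.7-fold in WT cells (log2 change -3.64 ± 0.09, edgeR adjusted p = 5.34e-30), a larger change than in 98.2% of all genes. In iEZR_CA cells it fell 2.03-fold over the same hours (log2 change -1.04 ± 0.09, edgeR adjusted p = 3.16e-13). The net change from ESC to T48 was -2.82 ± 0.09 on the log2 scale in WT cells (edgeR adjusted p = 9.01e-26). In iEZR_CA cells it was -0.26 ± 0.10, with overlapping libraries (edgeR adjusted p = 0.0154). That last call was lost without iEZR_CA T48 replicate 1 (log2 change -0.14, adjusted p = 0.168) or iEZR_CA ESC replicate 3 (log2 change -0.16, adjusted p = 0.124). Under spike-in scaling the change was 0.0037 (adjusted p = 0.985), beside the median of 0.26 over all genes.

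**Figure D3:**
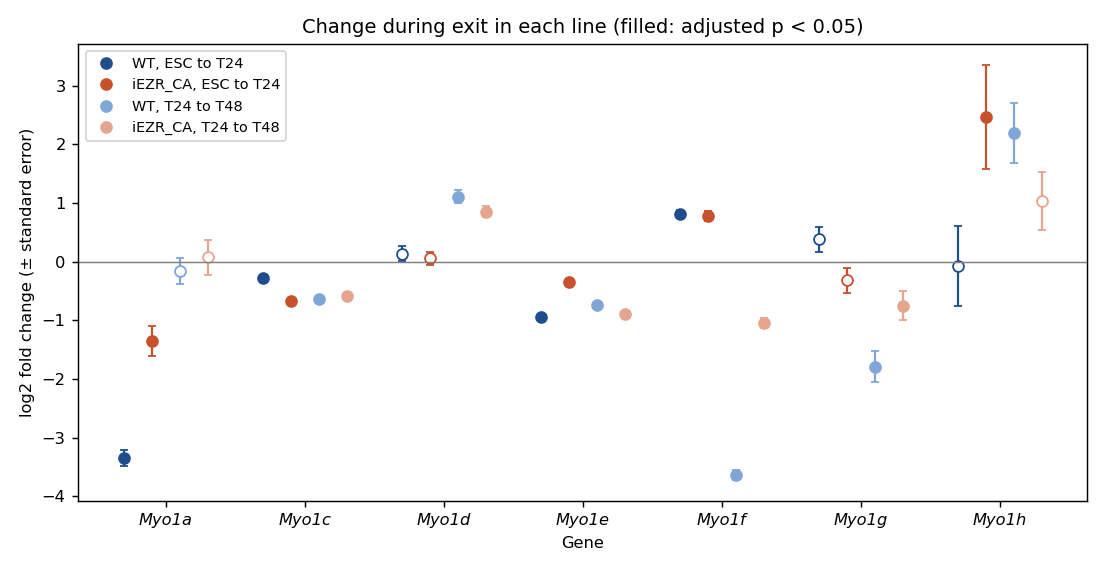
Log2 fold change (vertical axis, ± standard error from the edgeR fit) of each member (horizontal axis) from ESC to T24 (dark points) and from T24 to T48 (pale points) in WT (blue) and iEZR_CA (orange) cells, with filled points for adjusted p under 0.05. Myo1c and Myo1e lay below 0 in all 4 changes, and Myo1f fell by 3.64 in WT and by 1.04 in iEZR_CA cells in the second interval.

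Myo1c and Myo1e fell in both intervals in both lines. The log2 change of Myo1c was -0.28 and then -0.63 in WT cells and -0.67 and then -0.58 in iEZR_CA cells, with standard errors of 0.03. The first WT fall of Myo1c was not called under spike-in scaling (-0.14, adjusted p = 0.381). The log2 change of Myo1e was -0.94 ± 0.04 and then -0.74 ± 0.05 in WT cells, and -0.35 ± 0.04 and then -0.89 ± 0.05 in iEZR_CA cells. The first iEZR_CA fall of Myo1e was not called under spike-in scaling (-0.20, adjusted p = 0.232). Over 48 h Myo1e fell 3.12-fold in WT and 2.35-fold in iEZR_CA cells, and Myo1c 1.85-fold and 2.38-fold.

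Myo1d and Myo1g moved mostly after T24. Myo1d rose 2.15-fold in WT cells from T24 to T48 (log2 change 1.11 ± 0.11, edgeR adjusted p = 3.01e-14) and 1.81-fold in iEZR_CA cells (log2 change 0.85 ± 0.10, edgeR adjusted p = 1.05e-11), while its changes before T24 did not pass (0.14 ± 0.13 and 0.06 ± 0.11). Myo1g fell 3.68-fold in WT cells (log2 change -1.79 ± 0.27, edgeR adjusted p = 1.98e-08) and 1.68-fold in iEZR_CA cells (log2 change -0.75 ± 0.24, edgeR adjusted p = 0.00622) after T24, and its earlier changes did not pass (0.38 ± 0.21 and -0.32 ± 0.22). The iEZR_CA fall of Myo1g was not called under spike-in scaling (-0.68 ± 0.29, adjusted p = 0.0513).

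Myo1h rose from its low starting level in both lines. Its reads went from 10 in WT ESCs to 41 at T48 (ratio 4.55, 95% exact interval 2.24 to 10.2, edgeR adjusted p = 0.0001), and from 2 in iEZR_CA ESCs to 31 (ratio 13.1, 95% exact interval 3.33 to 113, edgeR adjusted p = 3.34e-05). The Myo1h ratios, here and between the lines, are of a group's summed reads divided by its summed size factors. From ESC to T24 the iEZR_CA sum of 14 reads against 2 gave a ratio of 6.3 (95% exact interval 1.45 to 57.1, edgeR adjusted p = 0.0151), a call lost with DESeq2 (adjusted p = 0.0656) and without iEZR_CA ESC replicate 1 (adjusted p = 0.0757). The overlapping gene Kctd10 averaged 339 normalized counts in WT ESCs and 534 at T48, and 417 and 409 in iEZR_CA cells.

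The third set asked whether the change over time differed between the lines, as the change in iEZR_CA cells minus that in WT cells. From ESC to T24, 3 of the 7 members passed this interaction test, beside 38.3% of all genes. From T24 to T48, 2 of the 7 passed, beside 46.2%, and from ESC to T48, 4 of the 7 passed, beside 45.8%. The shares of members were again near those of all genes.

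Before T24 the fall of Myo1a was smaller in iEZR_CA cells by 2.01 ± 0.33 on the log2 scale (edgeR adjusted p = 7.18e-07). The fall of Myo1e was smaller by 0.60 ± 0.06 (edgeR adjusted p = 8.29e-13), and Myo1c fell further in iEZR_CA cells (interaction -0.40 ± 0.04, edgeR adjusted p = 2.32e-11). Under spike-in scaling that interaction was -0.38 ± 0.18 and was not called (adjusted p = 0.163). The rise of Myo1f did not differ detectably (interaction -0.04 ± 0.11, edgeR adjusted p = 0.804). After T24 the fall of Myo1f was smaller in iEZR_CA cells by 2.60 ± 0.13 (edgeR adjusted p = 5.55e-19) and that of Myo1g by 1.04 ± 0.37 (edgeR adjusted p = 0.0177). The Myo1g interaction was not called with DESeq2 (1.07 ± 0.48, adjusted p = 0.071) or under spike-in scaling (0.99 ± 0.44, adjusted p = 0.1). Over the full 48 h the interaction was 2.24 ± 0.32 for Myo1a, 2.56 ± 0.14 for Myo1f, 0.45 ± 0.07 for Myo1e and -0.35 ± 0.05 for Myo1c, all with edgeR adjusted p of 3.49e-08 or below. Those of Myo1c and Myo1e were not called under spike-in scaling, at -0.36 ± 0.18 and 0.42 ± 0.18 (adjusted p = 0.154 and 0.0927).

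To compare levels between genes, normalized counts were divided by the length of the merged exons in kb. Summed over the 7 members, this level was 1193 ± 13.5 normalized counts per kb (SD, n = 3) in WT ESCs, 957 ± 8.17 at T24 and 470.6 ± 18.5 at T48. In iEZR_CA cells it was 1020 ± 21.3, 765 ± 14.8 and 484 ± 3.87. The ratio of iEZR_CA to WT sums was 0.855 for ESCs, 0.799 for T24 cells and 1.03 for T48 cells.

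The make-up of the summed level also differed between the groups. Of the level per kb summed over the 7 members, Myo1c took 40.75% ± 0.300 in WT ESCs and 57.4% ± 0.932 in iEZR_CA ESCs. Its share was 42.3% ± 0.140 in WT and 48.2% ± 0.727 in iEZR_CA cells at T24. At T48 the order was turned, with 55.97% ± 0.720 in WT and 50.9% ± 1.27 in iEZR_CA cells. Myo1e took between 24.6% and 37.7% over the 6 groups. Myo1f took 13.6% ± 0.802, 30.2% ± 0.667 and 4.845% ± 0.724 in WT ESC, T24 and T48 cells, and 5.78% ± 0.824, 13.03% ± 0.833 and 10.1% ± 1.57 in iEZR_CA cells. Myo1a took 6.58% in WT ESCs and at most 1.535% in any other group. Myo1d took 1.055% in WT ESCs and 6.35% in WT T48 cells, and 1.815% and 7.27% in iEZR_CA cells at the same stages. Myo1g and Myo1h together stayed below 1% in every group.

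**Figure D4:**
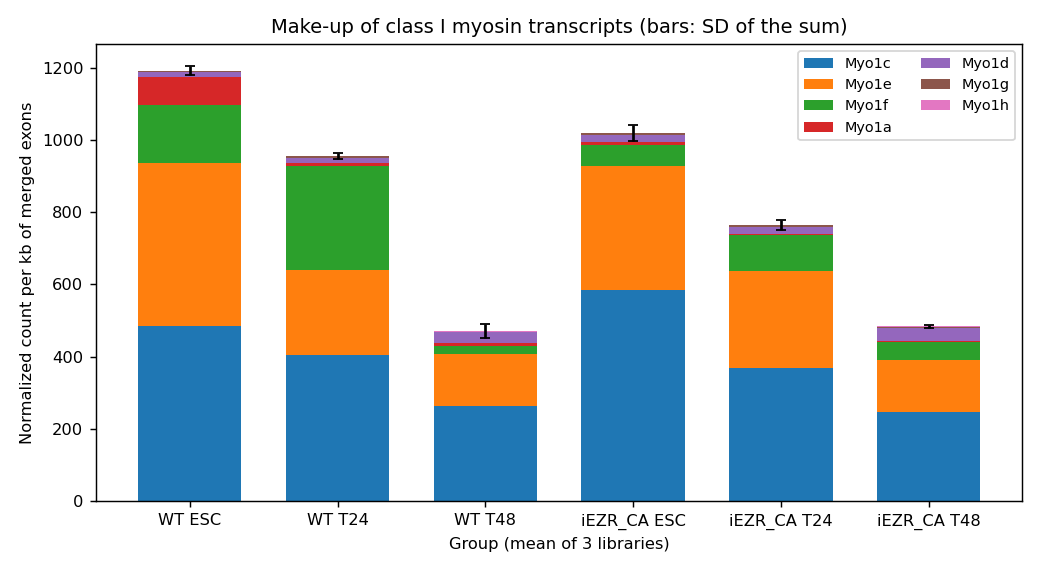
Stacked group means of normalized counts per kb of merged exons (vertical axis) for the 7 members in the 6 groups (horizontal axis), with error bars for the SD of the sum over 3 libraries. The sum fell from 1193 to 470.6 in WT cells and from 1020 to 484 in iEZR_CA cells between ESC and T48, and the Myo1f share was widest in WT T24 cells.

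The 3 ERM genes Ezr, Rdx and Msn stood above the class I members in every group on the same scale. Their summed level per kb was 4.66 ± 0.166 times that of the 7 members in WT ESCs, 4.73 ± 0.110 times at T24 and 11.25 ± 0.220 times at T48. In iEZR_CA cells the ratio was 9.97 ± 0.233, 11.3 ± 0.399 and 15.4 ± 0.209. Because reads of the ezrin transgene and of endogenous Ezr were not told apart, these iEZR_CA ratios may not be those of endogenous genes alone. The ratio rose late in WT cells. Between T24 and T48 the summed level of the 7 members fell from 957 to 470.6 and the ERM sum went from 4522 to 5294. The ERM sum had been 5561 in WT ESCs. In iEZR_CA cells Ezr was higher than in WT cells by 1.07 ± 0.03 on the log2 scale in ESCs, 1.43 ± 0.03 at T24 and 0.69 ± 0.03 at T48. Msn, coding for moesin, was higher by 0.99 ± 0.04, 0.46 ± 0.04 and 0.52 ± 0.04 (edgeR adjusted p of 2.49e-12 or below for both genes at each stage). Rdx, coding for radixin, did not pass in ESCs (-0.0038 ± 0.028, edgeR adjusted p = 0.927) or at T48 (0.03 ± 0.03, edgeR adjusted p = 0.409) and was lower at T24 by a small margin (-0.09 ± 0.03, edgeR adjusted p = 0.00292).

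Genes that work with the class were read from fixed lists, and their counts stand beside the 54.5%, 60.9% and 61.1% of all genes that passed in ESC, T24 and T48 cells. All 3 calmodulin genes, whose protein is the light chain of class I myosins, were higher in iEZR_CA ESCs, led by Calm3 (log2 difference 0.30 ± 0.03, edgeR adjusted p = 1.62e-15). At T24, 2 were higher and none lower, and at T48, 2 were higher and Calm2 was lower (log2 difference -0.09 ± 0.03, edgeR adjusted p = 0.00417). The list's median log2 difference was 0.18, 0.25 and 0.06 in ESC, T24 and T48 cells.

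Of 15 Arp2/3 and endocytic actin partners of the long-tailed members, all were tested, and 11 were higher and 2 lower in iEZR_CA ESCs. At T24 10 were higher and 1 lower, and at T48 8 were higher and 2 lower, with medians of 0.19, 0.17 and 0.13. Of all genes, 26.4%, 30.8% and 31.0% were higher and 28.1%, 30.1% and 30.1% lower at the 3 stages. Arpc1b, a subunit of the Arp2/3 complex, was higher by 0.41 ± 0.03, 0.54 ± 0.04 and 0.83 ± 0.04 at the 3 stages (edgeR adjusted p of 8.69e-17 or below). Dnm1, the neuronal dynamin, was lower in ESCs (log2 difference -0.99 ± 0.17, edgeR adjusted p = 1.12e-06), and Dnm2, the ubiquitous dynamin, was higher at T48 (log2 difference 0.88 ± 0.04, edgeR adjusted p = 1.02e-32).

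Of 16 other unconventional myosins, 12 passed the filter on low counts. Among these, 4 were higher and 2 lower in iEZR_CA ESCs, 6 and 3 at T24, and 6 and 2 at T48, with medians of 0.10, 0.14 and 0.31. Their total of 6, 9 and 8 passing was near the share of all genes at ESC and T48. Myo18a, a myosin of the Golgi, showed the largest called difference in ESCs and was lower (log2 difference -0.52 ± 0.04, edgeR adjusted p = 1.32e-17). The pointed-end motor Myo6 was higher at T24 (log2 difference 1.05 ± 0.06, edgeR adjusted p = 2.77e-26) and at T48 (0.96 ± 0.07, edgeR adjusted p = 6.55e-21), and the recycling-endosome motor Myo5b at T48 (1.45 ± 0.18, edgeR adjusted p = 1.53e-10). All 7 genes of non-muscle myosin II, the contractile motor with paired heads, passed at each stage, with 4 higher and 3 lower, beside the same shares of all genes. Its light chain gene Myl9 had log2 differences of -0.97 ± 0.34, -1.57 ± 0.14 and -2.42 ± 0.10 at the 3 stages, and its heavy chain gene Myh9 of -0.52 ± 0.03, -0.57 ± 0.03 and -0.99 ± 0.03 (edgeR adjusted p of 0.0129 or below).

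The genes whose levels most resembled each member were found by Pearson's r over the 18 libraries on log2 normalized counts plus 1, among 12800 genes with a mean of at least 50. The libraries share their groups, so these values are descriptions. Myo1a was most like Saal1 (r = 0.972), Crk (r = 0.970) and Cep112 (r = 0.960), and Myo1f most like Fzr1 (r = 0.980), Gpa33 (r = 0.979) and Kank3 (r = 0.978). Myo1e was most like Sik1 (r = 0.992), Kank2 (r = 0.990) and Grn (r = 0.990). Myo1c was most like Slc25a39 (r = 0.985), Irf2bpl (r = 0.979) and Cldn4 (r = 0.979), and Myo1d most like Rap1gds1 (r = 0.976), Rab15 (r = 0.974) and Sec63 (r = 0.972). Myo1g and Myo1h were below the mean level used.

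Around the members, the median log2 difference between the lines of all tested genes on a member's chromosome lay between -0.08 and 0.03 for each member and stage. Among the 20 tested genes nearest to Myo1a, 10 on either side, the median was -0.13 in ESCs, -0.24 at T24 and -0.11 at T48, with 7, 11 and 10 of them lower and 3, 2 and 3 higher. Lower genes made up 28.1%, 30.1% and 30.1% of all genes tested at those stages, and higher genes 26.4%, 30.8% and 31.0%. Among the 20 nearest to Myo1f the median was -0.18 for ESCs, -0.06 for T24 and 0.04 for T48 cells, with 10, 7 and 6 lower and 1, 3 and 5 higher. The median of the 20 nearest to Myo1d was -0.18, -0.26 and -0.16, opposite in sign to Myo1d itself. Near Myo1e it was 0.20, 0.23 and 0.15, opposite in sign to Myo1e in ESCs and of the same sign at T24. In the same order of stages it was -0.15, -0.17 and 0.01 near Myo1g and 0.06, 0.08 and -0.15 near Myo1c. Near Myo1h it was 0.03, 0.11 and -0.02. Whether a difference of the region takes part in that of a member was not tested.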

How the data were processed

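PolyA RNA from 18 samples was sequenced in paired ends. The authors trimmed reads with Trim Galore 0.6.5, aligned them to mm10 with GSNAP and deposited HTSeq counts per Ensembl gene. The 92 spike-in rows and 5 rows of unassigned reads were left out of library sizes, and low-quality and intergenic reads were among the latter. The quasi-likelihood test of edgeR 4.0.16 (R 4.3.3) was run on the counts as deposited (TMM, filterByExpr by group, robust quasi-likelihood fit of the 6 groups, Benjamini-Hochberg over 18469 genes, adjusted p under 0.05). The standard error is the log2 fold change divided by the root of the F value. Depth was 10940752 to 33276622 reads on genes, and the common biological coefficient of variation was 2.98%. Normalized counts used DESeq2 1.42.0 size factors, and lengths came from GENCODE M21. The alternatives were DESeq2, other size factors, spike-in scaling, other filters, fewer groups in the fit, other lengths and leaving out each library. Replicate pairs differed beyond counting noise (chi-square per degree of freedom 1.61 to 3.59 over 18 pairs). The text names each member, the ERM genes and, of each other list, at most the 2 genes called with the largest change, and 1 item of that rule is not reported here. The members and lists were chosen with earlier results of these data known. The edgeR steps were tested on simulated data.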

Additional observations from a re-analysis of the deposited data

Results flagged for a closer look

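These results were picked out because the change over time differed between the lines in the interaction test (iEZR_CA change minus WT change on the log2 scale, edgeR). From ESC to T24 the values were 2.01 for Myo1a, -0.40 for Myo1c and 0.60 for Myo1e. From T24 to T48 they were 2.60 for Myo1f and 1.04 for Myo1g. From ESC to T48 they were 2.24 for Myo1a, -0.35 for Myo1c, 0.45 for Myo1e and 2.56 for Myo1f.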

How the results depend on the processing

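The calls of Myo1a and Myo1f between the lines and of Myo1a, Myo1e and Myo1f in WT cells over 48 h kept their direction and side of the threshold under every alternative that gave a value. The number of members called moved by over 1.5 times as follows. At T48 between the lines, 5 became 2 under spike-in scaling, 2 with DESeq2, 3 with no filter and 3 with at least 10 counts in every library. Spike-in scaling also gave 3 at T24 between the lines, and 1 and 2 for the interactions from T24 to T48 and from ESC to T48. DESeq2 gave 1 for the interaction from T24 to T48. The filter of at least 10 counts in every library, which leaves Myo1a, Myo1g and Myo1h untested, gave 4 from ESC to T48 in WT cells, 3 from ESC to T24 and 4 from ESC to T48 in iEZR_CA cells. Leaving out single libraries gave 2 to 5 at T48 between the lines and 3 to 5 for the interaction from ESC to T24, where 5 came without WT T24 replicate 2. Apart from those filters, the cause was not tested.

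Some uncalled log2 changes of single members changed sign when a library was left out. The ranges were -0.019 to 0.096 for Myo1e at T48 between the lines, -0.68 to 0.50 for Myo1h in WT cells from ESC to T24, -0.24 to 0.0074 for Myo1a in WT cells and -0.23 to 0.21 in iEZR_CA cells from T24 to T48, -0.13 to 0.058 for the Myo1f interaction from ESC to T24, and -0.078 to 0.36 for the Myo1a interaction from T24 to T48. Under spike-in scaling Myo1h in WT cells from ESC to T24 was 0.067 and Myo1f in iEZR_CA cells from ESC to T48 was 0.0037. With the longest transcript as length, the ERM ratio was 4.02, 4.09 and 9.58 in WT and 8.425, 9.58 and 13.2 in iEZR_CA cells, and the iEZR_CA to WT ratio of the summed members in ESCs was 0.876. Spike-in scaling lowered the number of all genes called in every comparison. Between the lines it went from 10058, 11253 and 11282 to 5506, 7129 and 7229 in ESC, T24 and T48 cells. In iEZR_CA cells it went from 10340 to 6593 (ESC to T24), from 11015 to 6931 (T24 to T48) and from 12954 to 10845 (ESC to T48). In WT cells it went from 12082 to 8632, from 12137 to 8823 and from 13767 to 11960 over the same intervals. For the 3 interactions it went from 7081, 8526 and 8452 to 2416, 3761 and 3881. No paired analysis was possible because the labels name wells and give no replicate numbers, so that the numbers used here only name libraries and do not pair them. Depth limits Myo1g and Myo1h most, with at most 61 and 22 reads in a library. It also limits Myo1a after ESC, with 10 to 17 reads at T24 and 9 to 22 at T48 in iEZR_CA libraries.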
